A study of Homo sapiens with 8 samples.

Results

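The 10 genes described here encode ETS transcription factors, and they were taken from the 38148 genes of the deposited expression table by their symbols: ETV4 and ETV5 of the PEA3 subfamily, ELF3 and EHF of the ESE subfamily, ELF1 of the ELF subfamily, ELK1 and ELK3 of the ternary complex factor (TCF) subfamily, ETS1 and ETS2 of the ETS subfamily, and ETV6 of the TEL subfamily. All 10 were found as a row each and all 10 were expressed above the limit for testing, a mean log2 value of 4.58 that corresponds to 1 RPM, the reads of a gene scaled to the usual common total of reads on genes. HT29 cells, a human colorectal cancer line with mutant BRAF, were left untreated or given selumetinib at 1 μM for 24 h, fixed with glyoxal, stained for cyclin B1 (CCNB1), a protein that accumulates before mitosis, and separated by its staining into a negative and a positive fraction before mRNA-seq. Crossing treatment with fraction gave 4 groups of 2 libraries. Values below are given in the order untreated negative, untreated positive, treated negative, treated positive. HT29 is an established line, and nothing in the labels says that the libraries of a group came from separate cultures, so p-values measure the spread between these libraries only. The sample labels disagree: every title names the other treatment and the other fraction than the description of the same library. Groups were taken from the descriptions, which match the column names of the table. If the titles held instead, the response given for CCNB1-positive cells would be that of CCNB1-negative cells with the opposite sign and vice versa, the fraction differences of treated and untreated cells would be exchanged with opposite signs, and the comparison of the 2 responses would not change. The mRNA of the sorting marker CCNB1 had log2 values of 11.66 and 12.01 in untreated CCNB1-negative cells, 13.79 and 14.05 in untreated CCNB1-positive cells, 7.92 and 7.22 in treated CCNB1-negative cells and 12.76 and 12.53 in treated CCNB1-positive cells. With the groups of the descriptions, CCNB1 mRNA was thus higher in the positive fraction, by 2.09 ± 0.21 (SE, log2) without and 5.08 ± 0.21 with selumetinib, and the ERK-driven genes DUSP6 and CCND1 were lower with the MEK inhibitor, at -1.75 and -1.60 in the negative and -1.06 and -1.29 in the positive fraction. DUSP6 and CCND1 belong to a list of ERK output genes described below, of which 14 were tested. In the negative fraction 11 of these fell and 3 rose, and in the positive fraction 10 fell and 2 rose. EGR1 and FOS were among those that rose in both fractions, and the shares over all genes are given there. Under the titles each of the signs above would be the opposite.

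ETS factors share a winged helix-turn-helix domain that binds DNA around a GGAA core, and they differ in their partners, in whether they activate or repress, and in how kinases reach them. Selumetinib blocks MEK, the kinase just above ERK, and several ETS factors are textbook endpoints of ERK: ELK1 is phosphorylated by ERK where it sits on DNA with serum response factor, ETS1 and ETS2 carry an ERK site beside their pointed domain, and the genes ETV4 and ETV5 are themselves switched on by the pathway when the repressor capicua (CIC) is released. ELF3 and EHF are largely restricted to epithelia, including that of the gut, where they are linked to differentiation.

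The libraries held between 12696860 and 23916160 reads on genes, with the treated CCNB1-negative libraries the shallowest. MALAT1, a nuclear non-coding RNA, took 0.303% to 0.386% of reads in untreated libraries and 2.01% to 4.42% in treated ones, and mitochondrial genes took 4.44% to 7.80% and 11.9% to 14.8%. All 7 markers of colorectal epithelium passed the limit, with a summed level of 9930 to 11020 RPM in untreated and 4578 to 8247 RPM in treated libraries. The markers did not all fall. In the limma test below, 2 were higher and 3 lower in CCNB1-negative cells, and 2 higher and 1 lower in CCNB1-positive cells. The shares over all genes in these comparisons are given there. None of 4 leukocyte or 3 endothelial markers passed it. Of 4 fibroblast markers only COL1A1 did, and their sum was 0.418 to 1.00 RPM in untreated and 1.57 to 5.46 RPM in treated libraries. The part of these shifts in the results below was not tested, apart from a rescaling to nuclear genes without MALAT1. In the sorted bulk samples, fewer cells of a kind and less of a message per cell cannot be told apart. The strand setting of the table is not given in the sources used here, and ELF3 shares 664 bases of exon with its antisense gene ELF3-AS1 on the opposite strand, ELK3 shares 209 and ETS2 shares 112 bases with a non-coding gene, and ETV4 shares 68 bases with DHX8. The same limit holds for 2 other ETS genes named below. GABPA shares 692 bases of exon with ATP5PF, and ELK4 shares 422 with MFSD4A.

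The ETS genes moved in both directions with selumetinib. The PEA3 genes ETV4 and ETV5 fell the furthest, ELK1 and ETS2 fell less, and ELF3, EHF, ELF1, ETS1 and ETV6 rose, in CCNB1-negative and CCNB1-positive cells alike, while ELK3 passed the test in neither. In limma on the log2 values of all 14219 genes tested, with Benjamini-Hochberg adjustment and a threshold of 0.05, 5 members were higher and 4 lower with selumetinib in CCNB1-negative cells. Of all genes tested, 38.2% were higher and 35.8% lower in that comparison, so the 9 of 10 members stand against a background in which most genes moved. In CCNB1-positive cells the same 5 members were higher and the same 4 lower, where 38.0% of all genes were higher and 27.3% lower. The median change over the 10 members, 0.30 and 0.23 on the log2 scale in the negative and positive cells, says little because the members moved in both directions. The medians over all genes were 0.05 and 0.17. Quantile normalization moved those medians to -0.08 and -0.07, rescaling to nuclear genes without MALAT1 moved them to 0.23 and 0.31, and limma-voom moved them to -0.01 and 0.03. Of all genes called in CCNB1-positive cells 58.1% were higher, against 47.5% under quantile normalization and 46.3% among genes above 10 RPM.

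**Figure D1:**
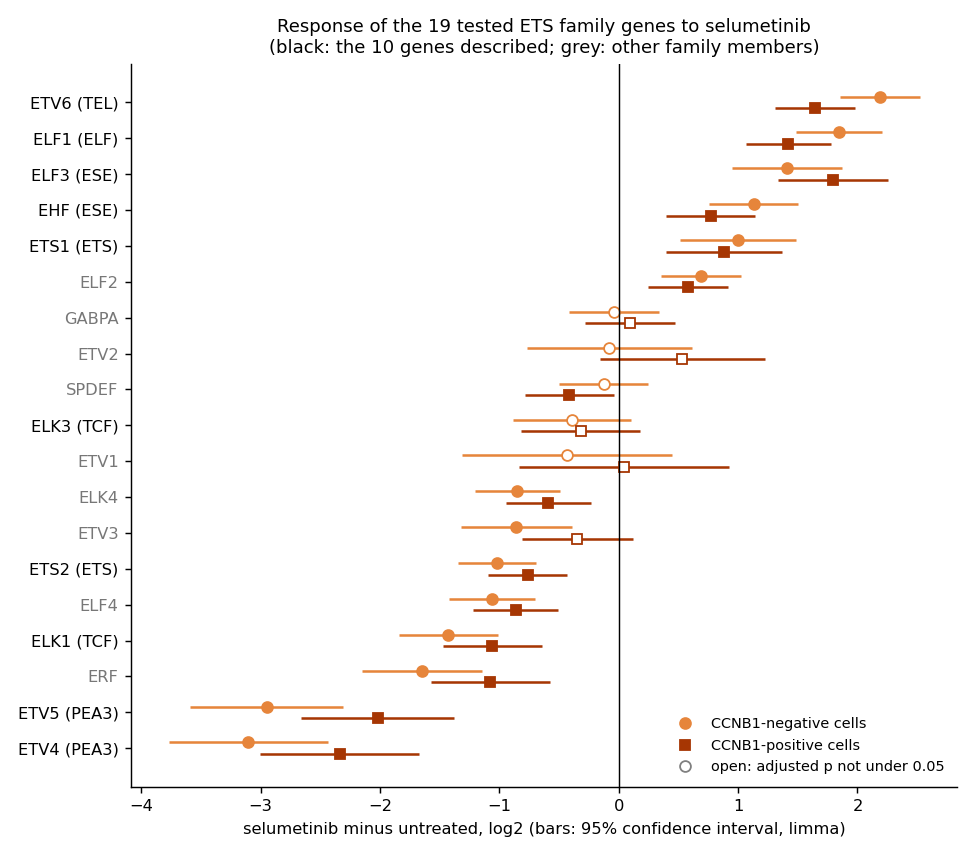
Change with selumetinib (log2 of treated over untreated, horizontal axis) of the 19 ETS family genes that were tested, in CCNB1-negative cells (circles) and CCNB1-positive cells (squares), with 95% confidence intervals from limma and open symbols where the adjusted p was not under 0.05. ETV4 and ETV5 stand at the lower end with -3.10 and -2.95 in CCNB1-negative cells, and ETV6 at the upper end with 2.19.

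The PEA3 factors are activators best known from invasive carcinomas, and ETV4 lies at chr17:43527844-43579620 (GRCh38, minus strand, ENSG00000175832). Its log2 values were 10.76 and 10.73 in untreated CCNB1-negative cells, 10.86 and 10.83 in untreated CCNB1-positive cells, 7.85 and 7.43 in treated CCNB1-negative cells, and 7.82 and 9.19 in treated CCNB1-positive cells. Every treated library was below every untreated one, and the treated CCNB1-positive libraries stood far apart from each other. In reads, this was 1347 to 1861 per untreated library against 102 to 372 per treated library. The change was -3.10 ± 0.31 (SE) in CCNB1-negative cells, 8.59-fold lower, with an adjusted p of 8.11e-07, and -2.34 ± 0.31 in CCNB1-positive cells, 5.05-fold lower, with an adjusted p of 2.24e-05. Only 1.10% of the genes tested had a change as low or lower in the negative fraction, and 0.246% in the positive fraction.

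ETV5 (chr3:186046314-186110318, minus strand, ENSG00000244405), the closest relative of ETV4 in the set, followed it. Its log2 values were 9.53 and 9.53 in untreated CCNB1-negative cells and 9.77 and 9.71 in untreated CCNB1-positive cells, and then 6.26 and 6.89 in treated CCNB1-negative cells and 7.16 and 8.28 in treated CCNB1-positive cells. Again no treated library reached an untreated one, and replicate 2 of the treated CCNB1-positive cells kept the most. ETV5 fell by 2.95 ± 0.30 (SE) on the log2 scale in CCNB1-negative cells (adjusted p = 8.78e-07) and by 2.02 ± 0.30 in CCNB1-positive cells (adjusted p = 5.28e-05). The share of genes with a change as low or lower was 1.31% and 0.661%.

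The treated CCNB1-positive replicates of the PEA3 genes differed more than those of most genes. Their SD was 0.97 for ETV4 and 0.79 for ETV5, against 0.03 and 0.05 in untreated CCNB1-positive cells. The SE and adjusted p given for these genes rest on 1 spread shared by all 4 groups. They do not measure the spread of the treated CCNB1-positive group by itself. Replicate 2 exceeded replicate 1 by 1.37 for ETV4 and by 1.12 for ETV5, and just 0.127% and 0.338% of all genes tested had a gap as large in that direction, against a median gap of -0.02. Taken one by one against the untreated CCNB1-positive mean, ETV4 stood at -3.02 in replicate 1 and -1.65 in replicate 2, and ETV5 stood at -2.58 and -1.46. Both genes stayed lower in CCNB1-positive cells when either treated library was left out, which leaves 1 library in that group. The change of ETV4 then ranged from -3.02 to -1.65 and that of ETV5 from -2.58 to -1.46.

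**Figure D2:**
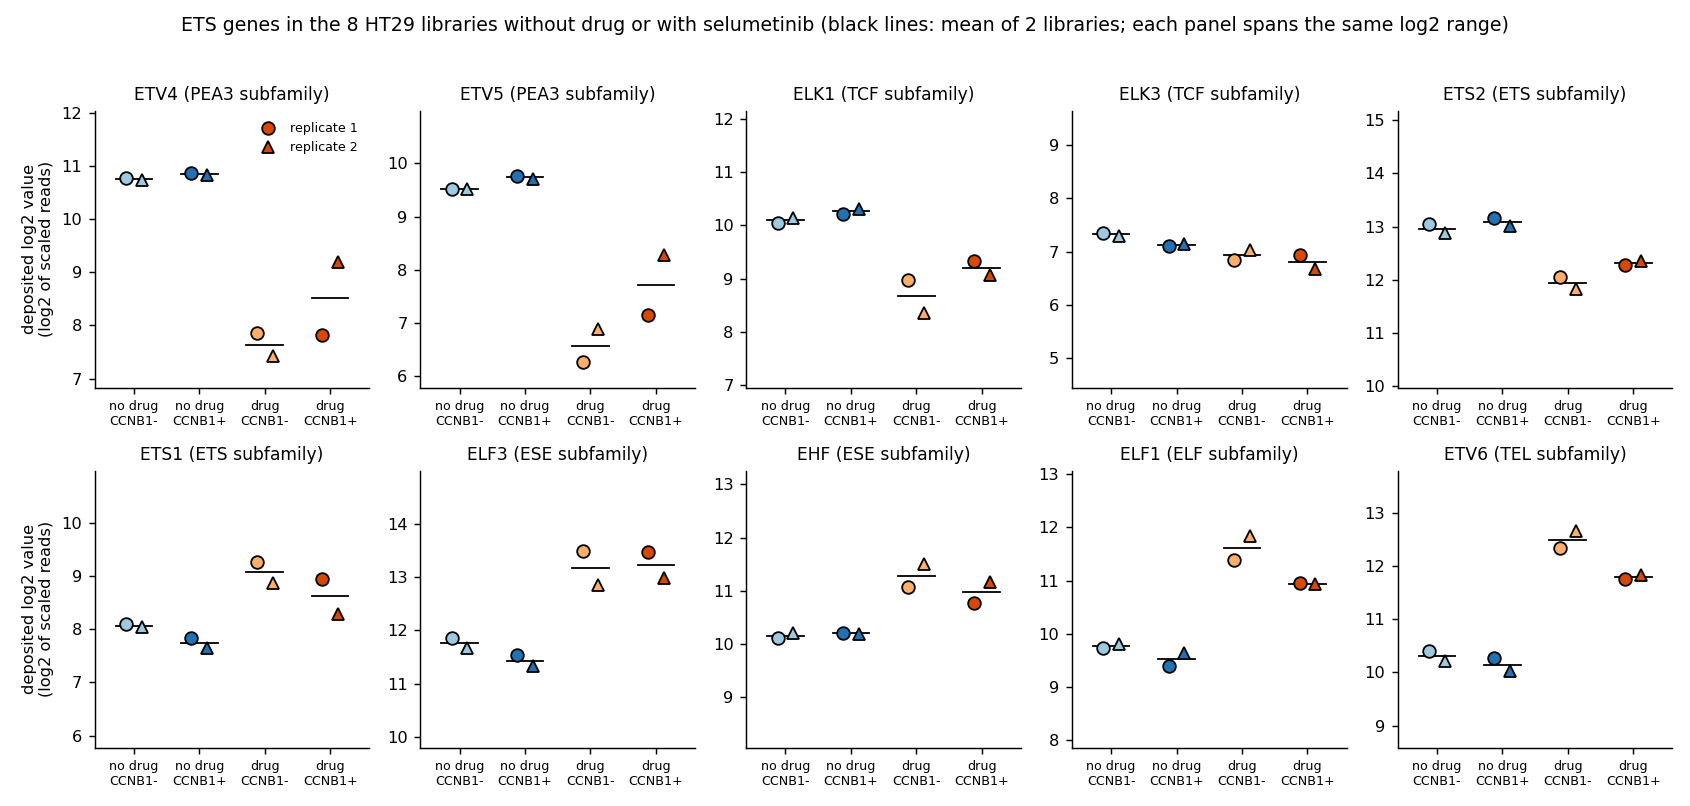
Deposited log2 values (vertical axes, each spanning the same range) of the 10 ETS genes in the 8 libraries, by group, with circles for replicate 1, triangles for replicate 2 and a black line at the group mean. The 4 treated libraries lie below the 4 untreated ones for ETV4, ETV5, ELK1, ELK3 and ETS2 and above them for ETS1, ELF3, EHF, ELF1 and ETV6.

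The 2 PEA3 genes can be set beside 15 other genes whose transcription reports ERK output, such as the dual specificity phosphatases and Sprouty proteins that feed back on the pathway. Of these, 14 were tested. In the negative fraction 11 fell and 3 rose, with a median change of -1.14, and in the positive fraction 10 fell and 2 rose, with a median of -1.13. Of all genes tested, 35.8% fell and 38.2% rose in the negative fraction, and 27.3% and 38.0% in the positive fraction. The 3 genes that were higher in CCNB1-negative cells were the immediate early genes EGR1 and FOS, which encode transcription factors, and SPRED2, which encodes an inhibitor of RAS signalling, and SPRED2 at 0.45 ± 0.20 did not pass in CCNB1-positive cells (adjusted p = 0.064). The largest changes of the list in CCNB1-negative cells were those of IER3, an early response gene (-1.86 ± 0.20), DUSP6, the ERK phosphatase (-1.75 ± 0.20), PHLDA1 (-1.72 ± 0.16) and CCND1, which encodes cyclin D1 (-1.60 ± 0.14). In CCNB1-positive cells these genes stood at -1.53, -1.06, -1.73 and -1.29, all of them called. None of the 14 genes fell as far as ETV4 or ETV5 in the change averaged over replicates, a difference between genes that was not tested. In replicate 2 of the treated CCNB1-positive cells DUSP6 stood at -0.72 and SPRY4, another feedback inhibitor, at -0.87, against -1.40 and -1.53 in replicate 1. By contrast PHLDA1 stood at -1.82 in replicate 2, below ETV4 and ETV5 there, and at -1.65 in replicate 1, so the higher values of replicate 2 did not extend to every gene of the list. The untreated CCNB1-positive replicates of SPRY4 also differed, with replicate 2 minus replicate 1 at -0.57, against -0.10 for DUSP6.

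**Figure D3:**
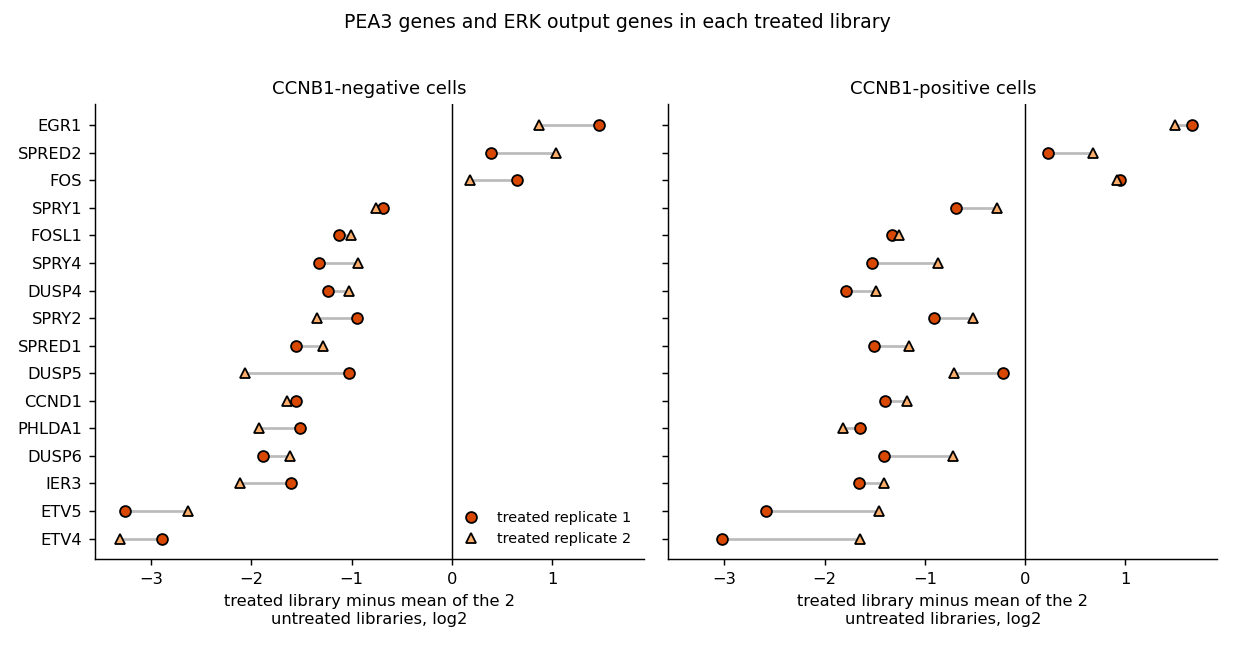
Difference of each selumetinib-treated library from the mean of the 2 untreated libraries of its fraction (log2, horizontal axes) for ETV4, ETV5 and 14 ERK output genes, with CCNB1-negative cells at the left and CCNB1-positive cells at the right. In CCNB1-positive cells the triangles of replicate 2 lie to the right of the circles of replicate 1 by 1.37 for ETV4, 1.12 for ETV5 and 0.68 for DUSP6.

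Among 5 genes known to restrain the PEA3 factors, 3 were higher with selumetinib in both fractions and none was lower. Of all genes tested, 38.2% were higher in the negative and 38.0% in the positive fraction, so 3 of 5 says little. CIC itself, the repressor of the PEA3 genes, stood at 0.16 ± 0.26 in negative and 0.27 ± 0.26 in positive cells and passed in neither, with adjusted p of 0.58 and 0.36. Its cofactor gene ATXN1 rose by 1.56 ± 0.19 and 1.37 ± 0.19, whereas the related ATXN1L stood at -0.32 and -0.14 without passing. COP1 and DET1, which belong to the ubiquitin ligase that degrades PEA3 proteins, rose by 0.86 ± 0.16 and 1.59 ± 0.17 in CCNB1-negative cells and by 0.66 and 0.99 in CCNB1-positive cells. These are messages, and neither the activity of CIC nor the stability of a PEA3 protein was measured.

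The ternary complex factors bind DNA together with serum response factor (SRF), and ELK1 (chrX:47635521-47650604, minus strand, ENSG00000126767) fell. Its log2 values were 10.05 and 10.13 in untreated CCNB1-negative cells and 10.22 and 10.31 in untreated CCNB1-positive cells, against 8.98 and 8.35, and 9.33 and 9.07, with selumetinib. The groups did not overlap between treatments. The change was -1.43 ± 0.19 (SE) in CCNB1-negative cells (adjusted p = 1.42e-05) and -1.06 ± 0.19 in CCNB1-positive cells (adjusted p = 3.14e-04). It was as low or lower for 12.4% and 8.68% of all genes tested. ELK3 (chr12:96194375-96269824, plus strand, ENSG00000111145), a TCF that can repress, was a low message with 7.35, 7.30, 7.10 and 7.14 in the untreated libraries and 6.84, 7.03, 6.93 and 6.68 in the treated ones, in the order of the groups. Although the treated libraries were all below the untreated ones, the change of -0.39 ± 0.23 in negative and -0.32 ± 0.23 in positive cells did not pass (adjusted p = 0.14 and 0.24), and under quantile normalization it came to -1.11 and -1.16 and passed in both. The partner gene SRF stood at -0.18 ± 0.16 in CCNB1-negative cells (adjusted p = 0.32) and was lower, at -0.45 ± 0.16, in CCNB1-positive cells (adjusted p = 0.022).

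For the ETS subfamily, named after the founding viral oncogene, the 2 members moved in opposite directions. ETS2 (chr21:38805183-38824955, plus strand, ENSG00000157557) had log2 values of 13.05 and 12.88 in untreated CCNB1-negative cells, 13.15 and 13.02 in untreated CCNB1-positive cells, 12.05 and 11.83 in treated CCNB1-negative cells and 12.28 and 12.36 in treated CCNB1-positive cells. ETS1 (chr11:128458761-128587558, minus strand, ENSG00000134954) had 8.09 and 8.04, 7.83 and 7.64, 9.26 and 8.86, and 8.95 and 8.29 in the same groups. ETS2 was thus lower and ETS1 higher in every treated library. ETS2 fell by 1.02 ± 0.15 (SE) and 0.76 ± 0.15 in the negative and positive cells, with adjusted p of 3.49e-05 and 6.29e-04, and ETS1 rose by 1.00 ± 0.23 and 0.88 ± 0.23, with adjusted p of 0.0012 and 0.0037. Of all genes tested, 20.7% and 15.9% changed as low as ETS2 or lower, and 26.9% and 27.5% as high as ETS1 or higher. Both calls in CCNB1-positive cells were sensitive to scaling, since quantile normalization left ETS2 at -0.31 (adjusted p = 0.10) and ETS1 at 0.45 (adjusted p = 0.11), and relative to the median of all genes ETS2 moved from -0.93 to -0.24. Without replicate 1 of the treated CCNB1-positive cells, the change of ETS1 there was 0.56.

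Both ESE genes rose. ELF3 (chr1:202007945-202017183, plus strand, ENSG00000163435) had log2 values of 11.85 and 11.66 in untreated CCNB1-negative cells and 11.53 and 11.33 in untreated CCNB1-positive cells, which became 13.49 and 12.84, and 13.47 and 12.98, with selumetinib. EHF (chr11:34621093-34661057, plus strand, ENSG00000135373) had 10.11 and 10.20, then 10.21 and 10.20, and with selumetinib 11.07 and 11.51, then 10.77 and 11.17. Treated libraries exceeded untreated ones throughout for both genes. ELF3 rose by 1.41 ± 0.21 (SE), 2.66-fold, in CCNB1-negative cells (adjusted p = 3.94e-05) and by 1.80 ± 0.21, 3.47-fold, in CCNB1-positive cells (adjusted p = 9.11e-06). EHF rose by 1.13 ± 0.17, 2.19-fold (adjusted p = 4.75e-05), and by 0.77 ± 0.17, 1.70-fold (adjusted p = 0.0016). A change as high or higher was found in 18.7% and 10.8% of all genes tested for ELF3, and in 24.05% and 30.4% for EHF.

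ELF1 (chr13:40931924-41061440, minus strand, ENSG00000120690) is a broadly expressed activator. It had log2 values of 9.73 and 9.80, and 9.40 and 9.64, in the untreated negative and positive cells, and 11.38 and 11.84, and 10.95 and 10.93, with selumetinib. The lowest treated value was thus more than a log2 unit above the highest untreated value. ELF1 rose by 1.84 ± 0.17 (SE) in CCNB1-negative cells (adjusted p = 3.24e-07) and by 1.42 ± 0.17 in CCNB1-positive cells (adjusted p = 8.10e-06). Changes as high or higher were found in 12.8% and 16.15% of all genes tested.

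ETV6 (chr12:11649854-11895402, plus strand, ENSG00000139083), also called TEL, is a repressor that polymerizes through its pointed domain, and it rose more than any other ETS family gene tested in CCNB1-negative cells. Its log2 values were 10.40 and 10.22 in untreated CCNB1-negative cells, 10.26 and 10.03 in untreated CCNB1-positive cells, 12.33 and 12.65 in treated CCNB1-negative cells and 11.75 and 11.82 in treated CCNB1-positive cells. The change was 2.19 ± 0.16 (SE), 4.55-fold, with an adjusted p of 4.19e-08 in CCNB1-negative cells, and 1.64 ± 0.16, 3.12-fold, with an adjusted p of 1.57e-06 in CCNB1-positive cells. For comparison, 8.90% and 12.7% of all genes tested had a change as high or higher, so the rise of ETV6 was less far out among all genes than the fall of ETV4.

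Taking all libraries of a treatment together, the 4 treated values lay above the 4 untreated values for 5 members and below them for the other 5, where 38.3% and 31.4% of all genes tested separated in these directions. All 10 members were thus apart, but 1 member overlapped under each other scaling: ETS1 under quantile normalization and ELK3 under the rescaling to nuclear genes.

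Promoter windows of 300 bases, 250 before to 50 after an annotated start (RefSeq, GRCh38.p14), were at hand for 7 of the 10 members with 12 windows in all. None was at hand for ETV4, ETV5 and ETS1. The windows of the epithelial genes ELF3 and EHF, which rose, and of ELK1 and ETS2, which fell, are printed 5′ to 3′ along the gene with the ETS core GGAA and its reverse complement TTCC in capitals.
ELF3, chr1:202010337-202010636, plus strand: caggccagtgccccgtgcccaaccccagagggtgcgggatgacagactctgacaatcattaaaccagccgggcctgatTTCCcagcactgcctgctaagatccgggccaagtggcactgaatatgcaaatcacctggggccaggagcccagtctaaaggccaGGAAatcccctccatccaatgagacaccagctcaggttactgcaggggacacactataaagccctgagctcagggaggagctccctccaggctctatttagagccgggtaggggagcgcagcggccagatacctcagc
EHF, the first of 2 windows, chr11:34624007-34624306, plus strand: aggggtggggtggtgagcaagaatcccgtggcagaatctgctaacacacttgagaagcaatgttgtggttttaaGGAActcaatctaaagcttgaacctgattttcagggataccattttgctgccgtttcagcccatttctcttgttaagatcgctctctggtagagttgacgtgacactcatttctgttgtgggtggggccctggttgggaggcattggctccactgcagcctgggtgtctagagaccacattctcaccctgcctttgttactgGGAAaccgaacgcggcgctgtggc
ELK1, chrX:47650555-47650854, minus strand: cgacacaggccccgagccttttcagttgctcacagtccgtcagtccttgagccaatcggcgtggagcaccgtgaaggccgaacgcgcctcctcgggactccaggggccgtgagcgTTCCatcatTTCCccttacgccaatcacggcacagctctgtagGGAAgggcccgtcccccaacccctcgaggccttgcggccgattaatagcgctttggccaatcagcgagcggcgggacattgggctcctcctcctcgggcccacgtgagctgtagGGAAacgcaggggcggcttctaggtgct
ETS2, the first of 2 windows, chr21:38804933-38805232, plus strand: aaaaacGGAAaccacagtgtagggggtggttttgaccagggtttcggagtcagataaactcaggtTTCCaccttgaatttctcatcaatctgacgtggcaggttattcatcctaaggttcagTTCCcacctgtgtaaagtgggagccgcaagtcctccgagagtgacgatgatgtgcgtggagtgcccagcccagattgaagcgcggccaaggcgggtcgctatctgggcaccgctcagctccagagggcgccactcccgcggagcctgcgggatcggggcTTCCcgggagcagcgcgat
The core occurs 2 times in the ELF3 window, 2 times in the EHF window and 4 times each in the ELK1 and ETS2 windows, on either strand, and ETV6 has 4. The other windows range more widely, with 0 in the second window of EHF, 7 in that of ETS2, 2 and 8 in the windows of ELK3, and 0, 3 and 5 in those of ELF1. Over all 35116 promoter windows, 95.5% hold the core and the median is 3 occurrences. The longer ETS site CCGGAAGT, which contains the core and is found in 4.14% of all windows, and the capicua octamers TGAATGAA (1.66%) and TGAATGGA (1.03%), as well as the CArG box of SRF (1.29%), had no match on either strand in any of the 12 windows of the members. A match or its absence describes only the letters of these windows.

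Levels were compared between genes as RPM per kb of annotated exon (RPKM). Among the 10 members, ETS2 was the most abundant message in untreated cells with 62.8 to 76.6 RPKM over the 4 libraries, followed by ETV4 with 20.05 to 22.1, ELF3 with 14.8 to 21.5 and ELK1 with 13.1 to 15.4. ERF, an ETS gene outside these 10, lay between ETS2 and ETV4 with 27.4 to 42.7. ELF1 (6.36 to 8.34), EHF (7.03 to 7.46), ETV6 (6.001 to 7.83) and ETV5 (5.31 to 6.33) came next with ranges that overlapped, apart from EHF and ETV5 and from ELF1 and ETV5, whose ranges did not meet. ETS1 (1.16 to 1.61) and ELK3 (1.23 to 1.48) were the lowest of the 10 and overlapped each other. ETV4 and ELF3 overlapped as well, as did ELF3 and ELK1.

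With selumetinib this order was rearranged. ELF3 became the leading message of the 10 with 47.5 to 72.9 RPKM, ETS2 followed with 34.0 to 47.7, and the ranges of the 2 genes met. ETV6 (21.2 to 41.4 RPKM), ELF1 (19.7 to 38.4) and EHF (11.8 to 20.4) now stood above ELK1 (4.47 to 8.44) and ETV4 (2.29 to 7.501). The range of ETV5, 0.607 to 2.42 RPKM, then took in that of ELK3, 0.992 to 1.31. The exon length counts all annotated isoforms, so a gene expressed as a short isoform is understated.

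Summed over the 10 genes, the ETS messages amounted to 146 to 160 RPKM in untreated and 176 to 202 RPKM in treated libraries, and their make-up shifted between subfamilies. The PEA3 genes took 16.5%, 17.4%, 17.8% and 18.2% of the sum in the untreated libraries and 1.78%, 1.67%, 2.15% and 5.62% in the treated ones, in the order of the groups. The ESE genes took between 14.8% and 18.05% without and between 35.0% and 44.5% with selumetinib. ETV6 took at most 4.95% without and at least 11.5% with the drug, and ELF1 at most 5.71% and at least 10.7%. The ETS subfamily, mostly ETS2, took 46.5% at the median of the untreated libraries and 19.1% to 28.1% with selumetinib, and the TCF genes 9.24% to 11.1% and 2.98% to 5.21%. The members of each subfamily among the 10 thus separated the treated from the untreated libraries in their share. This is a description of 10 selected genes and was not tested. The ELF and TEL shares are those of 1 gene each, and all shares are parts of the same sum and so depend on each other.

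**Figure D4:**
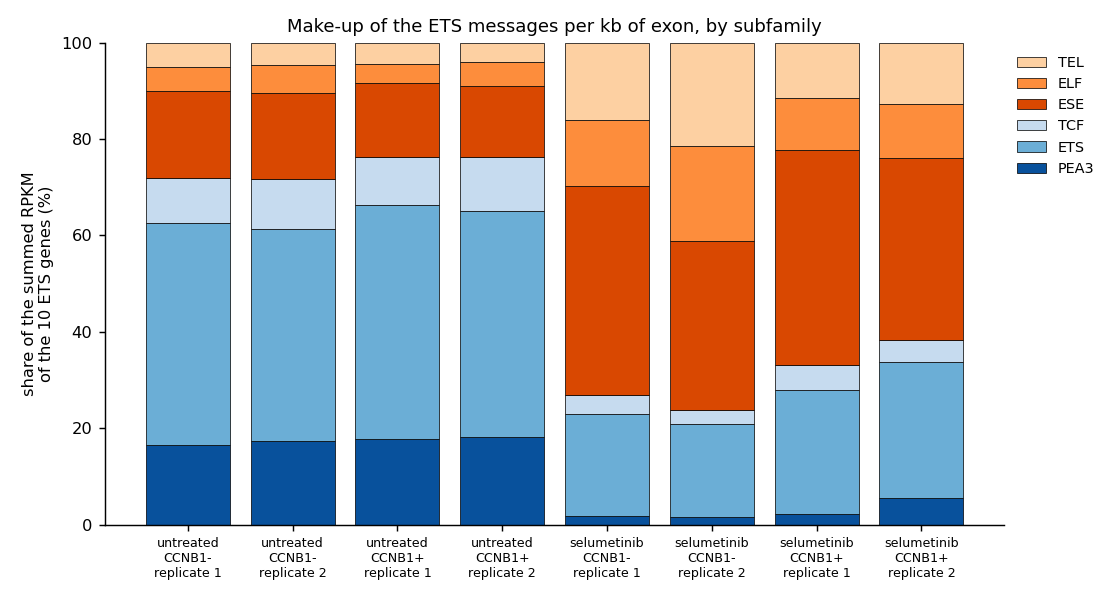
Share (percent, vertical axis) of each subfamily in the summed RPKM of the 10 ETS genes, with a stacked bar for each of the 8 libraries. PEA3 (darkest blue) takes 16.5% to 18.2% of the untreated bars and 1.67% to 5.62% of the treated bars, and ESE (darkest orange) takes at most 18.05% of the untreated and at least 35.0% of the treated bars.

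None of the 10 members was called between untreated CCNB1-positive and CCNB1-negative cells in limma after adjustment, and none had an unadjusted p under 0.05. In limma-voom 0 were called as well. Of all genes tested only 2.87% were called in this limma comparison, so 0 of 10 members says little about the ETS genes. The differences, positive minus negative, lay between -0.33 for ETS1 (95% confidence interval -0.82 to 0.16) and 0.21 for ETV5 (-0.43 to 0.85).

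In treated cells 1 member was higher and 2 were lower in CCNB1-positive than in CCNB1-negative cells, with 13.8% and 7.87% of all genes called in these directions. Of the genes called there 63.6% were higher, against 47.9% under quantile normalization and 48.7% by limma-voom. ETV5 was higher by 1.14 ± 0.30 (SE, log2; adjusted p = 0.016), while ETV6 and ELF1 were lower, at -0.71 ± 0.16 (adjusted p = 0.0066) and -0.67 ± 0.17 (adjusted p = 0.012). ETV4 pointed the same way as ETV5 without passing, at 0.87 ± 0.31 (adjusted p = 0.060). ELK1 stood at 0.54 ± 0.19 (adjusted p = 0.062), ETS2 at 0.38 ± 0.15 (adjusted p = 0.088), and ELF3 at 0.06 ± 0.21.

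These calls rested on few libraries. Leaving out a library leaves its group with 1 library and no spread of its own, so only sizes of differences are given. Without replicate 2 of the treated CCNB1-positive cells the difference of ETV5 was 0.58. It was 0.83 without replicate 1 of the treated CCNB1-negative cells. The difference of ETV4 ranged from 0.18 to 1.55 over the alternatives, the latter without replicate 1 of the treated CCNB1-positive cells. ELF1 stood at -0.44 without replicate 2 of the treated CCNB1-negative cells. Without replicate 1 or 2 of the treated CCNB1-positive cells it stood at -0.68 and -0.67. ETV6 stood at -0.54 without replicate 2 of the treated CCNB1-negative cells and at -0.67 without replicate 1 of the treated CCNB1-positive cells. Without replicate 1 of the treated CCNB1-negative cells, EHF stood at -0.53, ELK1 at 0.85 and ETS2 at 0.49.

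Whether the response itself differed between the fractions was tested as the interaction of treatment and fraction. None of the 10 members passed it in limma or in limma-voom, 2 of them, ETV5 and ETV6, had an unadjusted p under 0.05, and 5.33% of all genes tested were called. Same-numbered libraries were not paired here or in the fraction comparisons above. A block of fraction pairs, under which more members passed, is given in the last section. The response in CCNB1-positive minus that in CCNB1-negative cells was 0.77 for ETV4 (95% confidence interval -0.17 to 1.71), 0.93 for ETV5 (0.03 to 1.83), -0.54 for ETV6 (-1.02 to -0.07) and 0.39 for ELF3 (-0.26 to 1.04). The intervals for the PEA3 genes were wide, reaching from near 0 or below to more than 3-fold. Without replicate 1 of the treated CCNB1-positive cells, which left 1 library in that group, ETV4 stood at 1.45 and ETV5 at 1.49. ETV6 stood at -0.71 without replicate 1 of the treated CCNB1-negative cells.

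Of the other 18 genes of the ETS family, 9 were tested, of which 1 was higher and 4 lower in each fraction. Among all genes tested, 38.2% were higher and 35.8% lower in the negative fraction, and 38.0% and 27.3% in the positive fraction. ERF, an ETS repressor whose protein leaves the nucleus when ERK phosphorylates it, changed the most: its mean log2 values by group were 11.18 ± 0.15, 11.65 ± 0.08, 9.54 ± 0.65 and 10.57 ± 0.22 (SD, n = 2). It fell by 1.65 ± 0.23 (SE) in CCNB1-negative cells (adjusted p = 2.08e-05) and by 1.08 ± 0.23 in CCNB1-positive cells (adjusted p = 0.0011), and with selumetinib it was higher in CCNB1-positive than in CCNB1-negative cells by 1.04 ± 0.23 (adjusted p = 0.0071).

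ELF4, a relative of ELF1, moved opposite to it, at -1.06 ± 0.17 and -0.86 ± 0.17 in the negative and positive cells, whereas ELF2, also of that subfamily, rose by 0.69 ± 0.16 and 0.58 ± 0.16. ELK4, the third TCF gene, fell by 0.85 ± 0.17 and 0.59 ± 0.17 on the log2 scale. ETV3, a repressor, was lower in CCNB1-negative cells (-0.86 ± 0.22) and stood at -0.35 ± 0.22 in CCNB1-positive cells (adjusted p = 0.17). SPDEF, which directs secretory differentiation in the gut, stood at -0.13 ± 0.17 in CCNB1-negative cells and was lower in CCNB1-positive cells at -0.42 ± 0.17, with an adjusted p of 0.049 that passed only just and not under the rescaling to nuclear genes (0.20). The broadly expressed GABPA stood at -0.04 and 0.09. ETV1, the third PEA3 gene, was barely expressed with 17 to 57 reads per library and stood at -0.43 ± 0.41 and 0.04 ± 0.41, the latter turning to -1.12 and passing under quantile normalization, and ETV2 at -0.08 and 0.53 did not pass either.

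The remaining 9 family genes, ETV3L, ETV7, ELF5, ERG, FLI1, FEV, SPI1, SPIB and SPIC, were below the limit for testing. SPIB, an ETS factor of B cells and of the intestinal M cell lineage, was picked for description after its values were seen. It had 0 reads in all 4 untreated libraries, 115 and 71 reads in treated CCNB1-negative cells and 35 and 16 reads in treated CCNB1-positive cells. The share of all genes with reads in treated libraries only was not counted. Treated libraries held reads for 25038 to 25352 genes, and untreated ones for 22138 to 24227. Against a floor of 3 reads per untreated library, or 0.157 RPM in the shallowest of them, the treated mean of 6.91 RPM was at least 44.01-fold higher in CCNB1-negative cells and that of 1.44 RPM at least 9.19-fold higher in CCNB1-positive cells. None of the other 8 genes had more than 30 reads in a library. These reads carry no molecular identifiers, and the floor covers counting error only.

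ETS factors act through coactivators and corepressors, and of 9 such partner genes 5 were higher and 1 lower in CCNB1-negative cells, and 5 higher and 2 lower in CCNB1-positive cells. The shares over all genes tested were 38.2% higher and 35.8% lower in CCNB1-negative cells, and 38.0% and 27.3% in CCNB1-positive cells. The histone acetyltransferase genes CREBBP and EP300 rose by 1.59 ± 0.16 and 0.82 ± 0.15 in CCNB1-negative cells and by 1.11 and 0.49 in CCNB1-positive cells. RUNX1, which binds DNA with ETS1, rose by 0.92 ± 0.17 and 0.73, and MED23, the Mediator subunit that ELK1 contacts, by 0.87 ± 0.16 and 0.65. The median over the list was 0.79 and 0.49 in the 2 fractions.

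Of 7 genes often cited as ETS targets in carcinoma, MMP1, MMP9 and PLAU were below the limit and 4 were tested. They did not move as a group: in CCNB1-negative cells MMP7, the matrilysin gene, was lower, at -1.59 ± 0.23, as was PLAUR, the urokinase receptor gene, at -1.78 ± 0.18, while MMP14, a membrane-bound matrix protease gene, was higher by 2.07 ± 0.43. In CCNB1-positive cells PLAUR stood at -1.10 ± 0.18 and MMP14 at 2.67 ± 0.43, both called, PTGS2, the inducible cyclooxygenase gene, was higher by 1.25 ± 0.30 beside 0.20 ± 0.30 in the negative fraction (-0.83 and called under quantile normalization), and MMP7 was at -0.34 ± 0.23 and did not pass.

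Over the 8 libraries, likeness to a member was measured as the root mean square difference of log2 values after each gene was centred on its own mean. Genes whose symbol is a clone identifier were left out when the nearest genes were ranked. The genes nearest to ETV4 were MFSD2A (0.20), SERPINE2 (0.22) and SLC38A5 (0.22), and those nearest to ETV5 were TOMM40 (0.26), SLC38A5 (0.27) and AEN (0.27), against a median over all genes of 1.52 and 1.42. ETV4 and ETV5 themselves were 0.31 apart. Nearest to ELF3 were RHOB (0.12), KMT5C (0.13) and SAPCD1-AS1 (0.15) with a median of 0.86, and nearest to EHF were ZNF148 (0.057), ZFP64 (0.063) and COMMD10 (0.068) with a median of 0.66. ELF3 and EHF were 0.52 apart, further from each other than either was from ETS1 (0.39 and 0.37) or ELF1 (0.42 and 0.40). The libraries share treatment and depth, so this describes profiles and no link between genes.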

How the data were processed

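Reads were trimmed (Trim Galore 0.5.0), aligned to GRCh38 (HISAT2 2.1.0) and quantified per gene in SeqMonk by the authors, as the submitters' processing notes and the methods name these tools. The deposited values are log2 of reads per gene, each library scaled to the total of the largest, and genes without a read stand at 0.9 reads. The annotation release is not given in the sources used here. All 8 value columns served. Dividing by the library constant returned whole reads for 100% of values (tolerance 0.01 reads, or 1e-05 of the count), between 12696860 and 23916160 per library. Replicates differed by more than sampling noise, so each library counted as its own. Per the study's methods the authors tested with DESeq2. Here, because the values are log2 values, genes with a mean log2 value of 4.58 (1 RPM) or more were tested with limma 3.58.1 (trend, R 4.3.3) on the deposited log2 values, with 1 coefficient per group, two-sided, Benjamini-Hochberg adjusted over 14219 genes. The design had 5 contrasts and no replicate block. The fit was tested on simulated data. Exon lengths and opposite strands come from GENCODE release 44, in which 99.3% of identifiers were found, and promoters from RefSeq (GRCh38.p14). Labels and methods differ in the growth medium they name.

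The 10 members and all gene lists were chosen with earlier results of these data known. Named genes are the members, the other ETS genes tested, up to 4 genes of each list with the largest absolute change in CCNB1-negative cells, CIC, SRF, DUSP6, CCNB1, and the 3 genes nearest in profile to ETV4, ETV5, ELF3 and EHF. Genes with a clone identifier as symbol were left out when the nearest in profile were taken. SPIB, SPRY4, EGR1, FOS, SPRED2 and COL1A1 were named after their values were seen. Alternatives were another p threshold, a 2-fold requirement, no filter, a filter at 10 RPM, quantile normalization, rescaling to nuclear genes without MALAT1, pseudocounts of 0.1 and 1 RPM, replicate blocks, only the groups compared, limma-voom on recovered reads, and leaving out each library. Python 3.11.15, pandas 2.3.3, numpy 2.4.6 and matplotlib 3.10.9 were used for the other steps.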

Additional observations from a re-analysis of the deposited data

Results flagged for a closer look

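MMP7, named among the ETS target genes, responded differently in the 2 fractions: its change with selumetinib was less negative in CCNB1-positive than in CCNB1-negative cells by 1.25 ± 0.33 (SE, log2), with an adjusted p of 0.045 for the interaction in limma. This adjusted p lies close to the threshold of 0.05. The difference was smaller, at 1.09, without replicate 2 of the untreated CCNB1-negative cells or replicate 1 of the untreated CCNB1-positive cells. Without replicate 2 of the treated CCNB1-negative cells it was 0.96, and without replicate 1 of the treated CCNB1-positive cells 0.89. The cause was not tested.

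CCNB1, the marker used for sorting, also differed in its response between the fractions, by 2.99 ± 0.30 (SE, log2; adjusted p = 1.79e-05 in limma), since it fell by 4.27 in CCNB1-negative cells and by 1.27 in CCNB1-positive cells. The fractions were defined by the protein of this gene.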

How the results depend on the processing

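Over the alternatives run, the 5 rises and 4 falls of the ETS genes with selumetinib kept their direction in both fractions. Under the 2-fold requirement 6758 genes were left in the negative and 4874 in the positive fraction. There ETS1 in both fractions and EHF and ETS2 in CCNB1-positive cells dropped out. Calls also changed under quantile normalization (ETS1, ETS2 and ELK3, above). No called member changed direction. Of genes outside the members, quantile normalization turned ETV1 in CCNB1-positive cells from 0.04 to -1.12 and PTGS2 in CCNB1-negative cells from 0.20 to -0.83, both then called. Leaving out a library left 1 in its group, whose own spread was then not measured, so these fits are given as sizes of change only.

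The fraction comparisons moved more. Untreated cells had 408 genes called, 217 at an adjusted p under 0.01, 255 with the 2-fold requirement, 244 under quantile normalization, and 224 to 455 without each library (0 members each time). Treated cells had 3077, then 1338 and 908 genes (1 member each) for the first 2 of these, and 1156 to 4279 genes and 1 to 5 members without each library, and 63.6% of genes called were higher there, against 47.9% under quantile normalization and 48.7% by limma-voom. The interaction had 758 genes, 426 at an adjusted p under 0.01, and 489 to 1806 genes with 0 to 2 members without each library.

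Same-numbered libraries of the 2 fractions deviated together in untreated (correlation over genes 0.35) and treated cells (0.43), and those of different treatments did not (-0.088 to 0.082). The labels say only that they share a number, so the block stays an alternative. The replicate block gave 500, 3741 and 883 genes in untreated fractions, treated fractions and the interaction. It called 0, 4 and 0 members, with ELK1 added in treated cells (adjusted p = 0.047 in limma). The replicate block of fraction pairs gave 1923, 6671 and 3850 genes and 1, 8 and 3 members: ELF3 in untreated cells (adjusted p = 0.028), all but ELF3 and ELK3 in treated cells (ETV4 0.0082, ELK1 0.0011, ETS2 0.0048, EHF 0.010 and ETS1 0.015 added), and ETV5 (0.0036), ETV6 (0.0067) and ELF3 (0.039) in the interaction. edgeR and DESeq2 on recovered reads, listed as alternatives, were not run, and limma-voom is the count-based comparison given.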
